A study of Mus musculus with 40 samples.

Results

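The response of a fast limb muscle to rapamycin (RM) was compared between 3-month-old mice with and without Tsc1 in their muscle fibers. For each gene the quantity tested was an interaction, that is, the log2 change from 3mTSCmKO to 3mTSCmKO+RM minus the log2 change from 3mCON to 3mCON+RM. A value below 0 therefore means a more negative response to RM in the Tsc1-deficient muscle, and a value above 0 a more positive one. The comparison rests on 20 of the 40 libraries of the series, with 5 libraries in each of 4 groups, and the other 20 libraries hold the same 4 groups at 9 months.

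Polyadenylated RNA was sequenced from the whole extensor digitorum longus muscle (EDL). Each group held 5 mice per the study's text, with 1 library a mouse. 3mCON and 3mCON+RM were floxed Tsc1 littermates without Cre, and 3mTSCmKO and 3mTSCmKO+RM carried the muscle deletion of Tsc1. All were labelled with the strain Tsc1tm1Djk/J, ate standard chow, and were injected intraperitoneally on 3 days with vehicle or with RM (4 mg/kg per the labels, while the study's own text gives a different dose). The promoter that drives Cre and the sex of these mice are not given in the sources used here. Because whole muscle was lysed, the RNA also came from vessels, connective tissue, nerve and blood, in which Tsc1 may be intact, and in such bulk samples fewer cells of a type and less RNA per cell cannot be told apart.

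Tsc1 and Tsc2 form a complex that switches off Rheb, the activator of the kinase complex mTORC1, so that fibers without Tsc1 keep mTORC1 active regardless of nutrients and growth factors. RM, bound to FKBP12, inhibits mTORC1. Active mTORC1 promotes ribosome and protein synthesis and lipid synthesis, raises translation of the stress regulator ATF4, and restrains autophagy, and it also dampens insulin signaling to AKT, which normally keeps the FoxO factors and their atrophy genes silent. A gene under mTORC1 control may respond to RM mainly where mTORC1 is high, or in both genotypes alike, and the interaction separates these cases.

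Tsc1 itself was measured first. Its transcript stood at 84.1 to 134 CPM (the count of a gene as a share of all counts in its library, after TMM scaling) in 3mCON, 53 to 94.9 CPM in 3mCON+RM, 26.5 to 30.7 CPM in 3mTSCmKO and 18.7 to 23.2 CPM in 3mTSCmKO+RM. No library of either TSCmKO group reached the lowest control library, and the reads that remain do not tell unrecombined cells from a shortened transcript. The interaction for Tsc1 was 0.09 ± 0.24 (log2 ± SE, edgeR quasi-likelihood test, adjusted p = 0.929). Total counts of the 20 libraries ran from 8883870 to 35224669, with a median of 18476242. Average insert sizes ran from 175 to 239 nt, with group means from 194 nt in 3mTSCmKO to 211.6 nt in 3mCON+RM. Muscle fiber markers (15 genes such as Ckm, Acta1 and Myh4) were present in every library, with a summed level of at least 133649 CPM.

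The response to RM differed between the genotypes for a small fraction of genes, nearly always with the larger change in 3mTSCmKO. With an adjusted p (Benjamini-Hochberg) under 0.05 as the call, 467 of 13543 genes tested were called in the interaction (3.45%), of which 184 were above 0 (1.36% of the genes tested) and 283 below 0 (2.09%). RM alone changed 3196 genes in 3mTSCmKO (23.6%, 1435 higher and 1761 lower) and 92 in 3mCON (0.679%). Of the 467 genes, 459 had the larger response in 3mTSCmKO and 8 in 3mCON. The 184 genes above 0 had a median log2 response of 0.93 in 3mTSCmKO and -0.01 in 3mCON, and the 283 below 0 had medians of -0.91 and -0.08. The interaction was at least 1 in log2 size for 176 genes, 84 above and 92 below 0, and the median over all genes tested was 0.01.

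The count for 3mCON depended on single libraries. It was 43 without library 1 or library 3 of 3mCON, 55 without library 4, and 46 without library 5. Without library 2, 3 or 4 of 3mCON+RM it was 42, 48 and 35. The interaction count ranged from 339 to 447 when any 1 of the 20 libraries was left out. A fit to the 20 libraries of 3 months alone called 1194 genes in the interaction and 352 for RM in 3mCON. Upper-quartile scaling moved the share of higher genes among the RM calls in 3mTSCmKO from 44.9% to 55.7%, and that among the interaction calls from 39.4% to 49.1%. Libraries were directional and reads were assigned by strand per the study's methods, which bears on the named genes that overlap a gene on the opposite strand (Tceal7, Scx, Gadd45a, Glul and Sqstm1 among others).

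**Figure D1:**
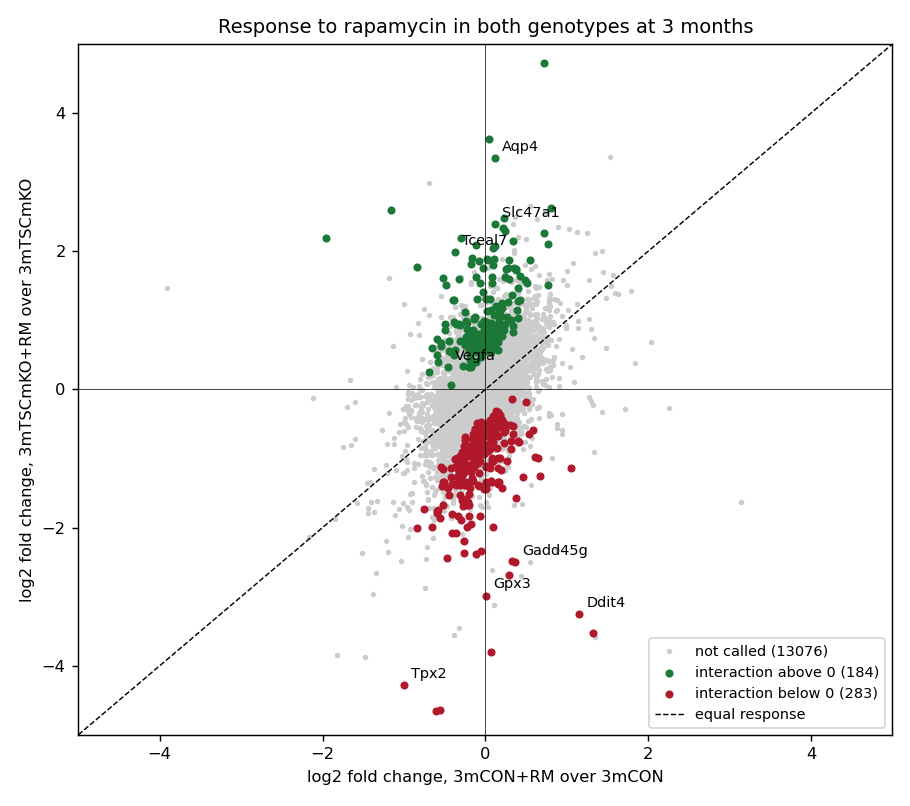
Log2 fold change with RM in control mice (horizontal axis) and in TSCmKO mice (vertical axis) for every gene tested, with the dashed line marking equal responses. Genes called in the interaction (184 above 0 in green, 283 below 0 in red) lie mostly along the vertical axis, where the response in 3mCON is near 0.

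The regulators of mTORC1 itself came first. The list of TSC and mTOR complex components had 4 of 39 members called, all below 0, with a median of -0.19, beside 2.09% of all genes called below 0. The 4 were Ddit4, Gatsl2, Sesn1 and Sesn2, each of which encodes an inhibitor acting upstream of mTORC1, while other inhibitors on the list, such as Tsc1, were not called. RM also lowered 15 and raised 3 of the 39 in 3mTSCmKO, where 23.6% of all genes changed, against 0 called in 3mCON.

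Ddit4 (REDD1, ENSMUSG00000020108, chr10:59949669-59951834 on the - strand of GRCm38), a stress-induced activator of the TSC complex, had the largest interaction of the named genes apart from S100a9. Its level was 6.05, 15.4, 10.4, 23.6 and 13.5 CPM in libraries 1 to 5 of 3mCON and 31.4, 58.7, 4.27, 22.2 and 36.5 CPM in 3mCON+RM. In 3mTSCmKO it was 17.7, 116, 70.1, 270 and 175 CPM, and in 3mTSCmKO+RM 8.16, 17.7, 19.7, 6.24 and 16.8 CPM. Library 1 of 3mTSCmKO fell into the range of the treated group, and its other 4 libraries lay above it. RM lowered Ddit4 9.5-fold in 3mTSCmKO (log2 -3.25 ± 0.54, adjusted p = 2.79e-05), while the change in 3mCON was 1.15 ± 0.52 (adjusted p = 0.478), giving an interaction of -4.40 ± 0.74 (edgeR adjusted p = 0.000424).

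Gatsl2 (Castor2), a relative of the arginine sensor of mTORC1, was at 351 to 635 CPM in 3mTSCmKO and 128 to 186 CPM in 3mTSCmKO+RM. In controls it was at 124 to 159 CPM with vehicle and 82.2 to 119 CPM with RM, so both genotypes had lower values with RM and neither pair overlapped. Its interaction was -1.17 ± 0.22 (edgeR adjusted p = 0.000956). Sesn1, which encodes a leucine-sensing sestrin, went from 88.8 to 152 CPM in 3mTSCmKO down to 30.9 to 49.4 CPM in 3mTSCmKO+RM, with an interaction of -1.07 ± 0.26 (adjusted p = 0.0141). The related Sesn2 was low in abundance, at 6.65 to 12.4 CPM in 3mTSCmKO and 3.72 to 5.05 CPM in 3mTSCmKO+RM. Its interaction of -0.98 ± 0.27 (adjusted p = 0.0316) lost its call without any 1 of 7 libraries (1 or 2 of 3mCON, 2 of 3mCON+RM, 1 or 2 of 3mTSCmKO, 3 or 5 of 3mTSCmKO+RM), at worst to -0.84 with an adjusted p of 0.0775.

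The neighboring list of insulin, IGF, AKT and FoxO signaling had 5 of 33 members called, in both directions (2 above and 3 below 0, median 0.04, beside 3.45% of all genes called), and 3 without library 5 of 3mCON. Pik3ip1, an inhibitor of PI3-kinase, was at 62.9 to 115 CPM in 3mTSCmKO and 29.8 to 39 CPM after RM (interaction -1.15 ± 0.19, edgeR adjusted p = 0.000162). Trib1, a pseudokinase, moved the other way, from 14.6 to 25.5 CPM in 3mTSCmKO up to 31.6 to 46.2 CPM in 3mTSCmKO+RM, against 15.3 to 21.9 CPM over both control groups. Its interaction was 1.17 ± 0.30 (adjusted p = 0.0176), and that of the transcription factor gene Foxo6 was 1.17 ± 0.30 (adjusted p = 0.0199), with levels under 8 CPM in every library.

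Glucocorticoid receptor targets were the list with the lowest median interaction among those without cell type markers. Of 24 tested, 8 were called, all below 0, and 21 had values below 0 (median -1.14). Over all 13543 genes tested 2.09% were called below 0, 6569 had values below 0 and the median was 0.01. Their median response was -0.74 in 3mTSCmKO and 0.20 in 3mCON, and RM lowered 11 of the 24 in 3mTSCmKO and raised none, against 1761 lowered and 1435 raised of all genes. The count was 8 or 9 whichever library was left out. The 8 were Ddit4, Arrdc2, Glul, Trim63, Fbxo32, Sgk1, Tsc22d3 and Klf15, of which Sgk1 and Tsc22d3 were chosen for description after their values were seen. Several are shared with the list of atrophy ubiquitin ligases and FoxO targets, where 7 of 29 members were called, all below 0 (median -0.44, with the same 2.09% over all genes), and without library 2 of 3mTSCmKO+RM the count was 4.

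RM lowered the ubiquitin ligases that mark muscle atrophy in 3mTSCmKO, and none of those named here was called in 3mCON. Trim63 (MuRF1, ENSMUSG00000028834), which tags thick filament proteins, was at 32.6, 33.9, 41.2, 32.5 and 34.5 CPM in 3mCON and 23.6, 48, 28.4, 25.9 and 26.1 CPM in 3mCON+RM. It was at 69.3, 84.9, 56.6, 169 and 131 CPM in 3mTSCmKO and at 30.4, 30, 34.2, 28.8 and 19.7 CPM in 3mTSCmKO+RM. Every 3mTSCmKO library lay above all 15 others, and the treated Tsc1-deficient muscles lay in the control range or below it. RM lowered Trim63 3.57-fold in 3mTSCmKO (log2 -1.84 ± 0.26, adjusted p = 1.51e-06), against -0.20 ± 0.26 in 3mCON (adjusted p = 0.938), and the interaction was -1.63 ± 0.36 (edgeR adjusted p = 0.00655).

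Fbxo32 (atrogin-1, ENSMUSG00000022358, chr15:58175879-58214932 on the - strand), the other classical atrophy ligase, was at 698, 427, 647, 487 and 485 CPM in 3mCON and 389, 775, 732, 439 and 431 CPM in 3mCON+RM. Levels were 1352, 1396, 856, 951 and 1118 CPM in 3mTSCmKO and 534, 430, 614, 242 and 409 CPM in 3mTSCmKO+RM. Every vehicle-treated Tsc1-deficient muscle lay above all other libraries, and the remaining groups overlapped. Its interaction was -1.36 ± 0.33 (edgeR adjusted p = 0.0121), with responses of -1.35 ± 0.23 in 3mTSCmKO (adjusted p = 3.27e-05) and 0.01 ± 0.23 in 3mCON (adjusted p = 0.996). Klf15, a glucocorticoid-induced regulator of amino acid breakdown, was at 49 to 81.4 CPM in 3mTSCmKO and 19.5 to 28.6 CPM in 3mTSCmKO+RM. It then lay below 3mCON+RM (29.3 to 52.5 CPM) in every library, and its interaction was -1.14 ± 0.24 (adjusted p = 0.00374). Trim55 (MuRF2), with -0.67, and Fbxo40, with -0.72, were called as well, and so was Fbxo30 (-0.75 ± 0.20, adjusted p = 0.0283), though not without any 1 of 6 libraries (1 or 5 of 3mCON+RM, 1 of 3mTSCmKO, 2, 4 or 5 of 3mTSCmKO+RM). Its weakest value, without library 5 of 3mCON+RM, was -0.68 (adjusted p = 0.0727).

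Glul (ENSMUSG00000026473, chr1:153899944-153909723 on the + strand) makes glutamine and is a long-known steroid-induced gene of muscle. It was at 409, 651, 430, 505 and 585 CPM in 3mCON and 380, 525, 241, 362 and 429 CPM in 3mCON+RM. It reached 995, 1204, 913, 1227 and 1366 CPM in 3mTSCmKO and stood at 238, 268, 261, 298 and 279 CPM in 3mTSCmKO+RM. RM lowered it 4.24-fold in 3mTSCmKO to below the range of 3mCON, and the interaction was -1.67 ± 0.28 (edgeR adjusted p = 0.000257).

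Arrdc2, an arrestin-domain gene, and Sgk1, a serum- and glucocorticoid-induced kinase, varied more between mice. Arrdc2 ran from 28.9 to 126 CPM in 3mCON, 18.1 to 161 CPM in 3mCON+RM, 50.9 to 200 CPM in 3mTSCmKO and 10.8 to 44.1 CPM in 3mTSCmKO+RM, so that the Tsc1-deficient groups did not overlap each other while both control groups overlapped them. The interactions were -2.80 ± 0.69 for Arrdc2 (edgeR adjusted p = 0.0171), -1.36 ± 0.31 for Sgk1 (adjusted p = 0.00835) and -1.14 ± 0.30 for Tsc22d3, the leucine zipper protein GILZ (adjusted p = 0.0203). Sgk1 was at 236 to 368 CPM in 3mTSCmKO and 103 to 173 CPM in 3mTSCmKO+RM, without overlap. Ddit4, Arrdc2, Sgk1 and Tsc22d3 were each lowest in library 3 within 3mCON+RM and in library 1 within 3mTSCmKO. Trim63, Fbxo32 and Klf15 were lowest in neither. Several called members of this list thus varied together between mice, so its count does not stand for independent genes. Fkbp5, another steroid target chosen after its values were seen, was not called (-1.53 ± 0.48, adjusted p = 0.0748). Per1, a clock gene that steroids induce, had an interaction of -1.25 ± 0.49 (adjusted p = 0.188), and the list of 19 clock genes had no member called by edgeR or DESeq2 (3 at an unadjusted p under 0.05, 1 called in the fit to 20 libraries and 1 without library 3 of 3mCON+RM).

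**Figure D2:**
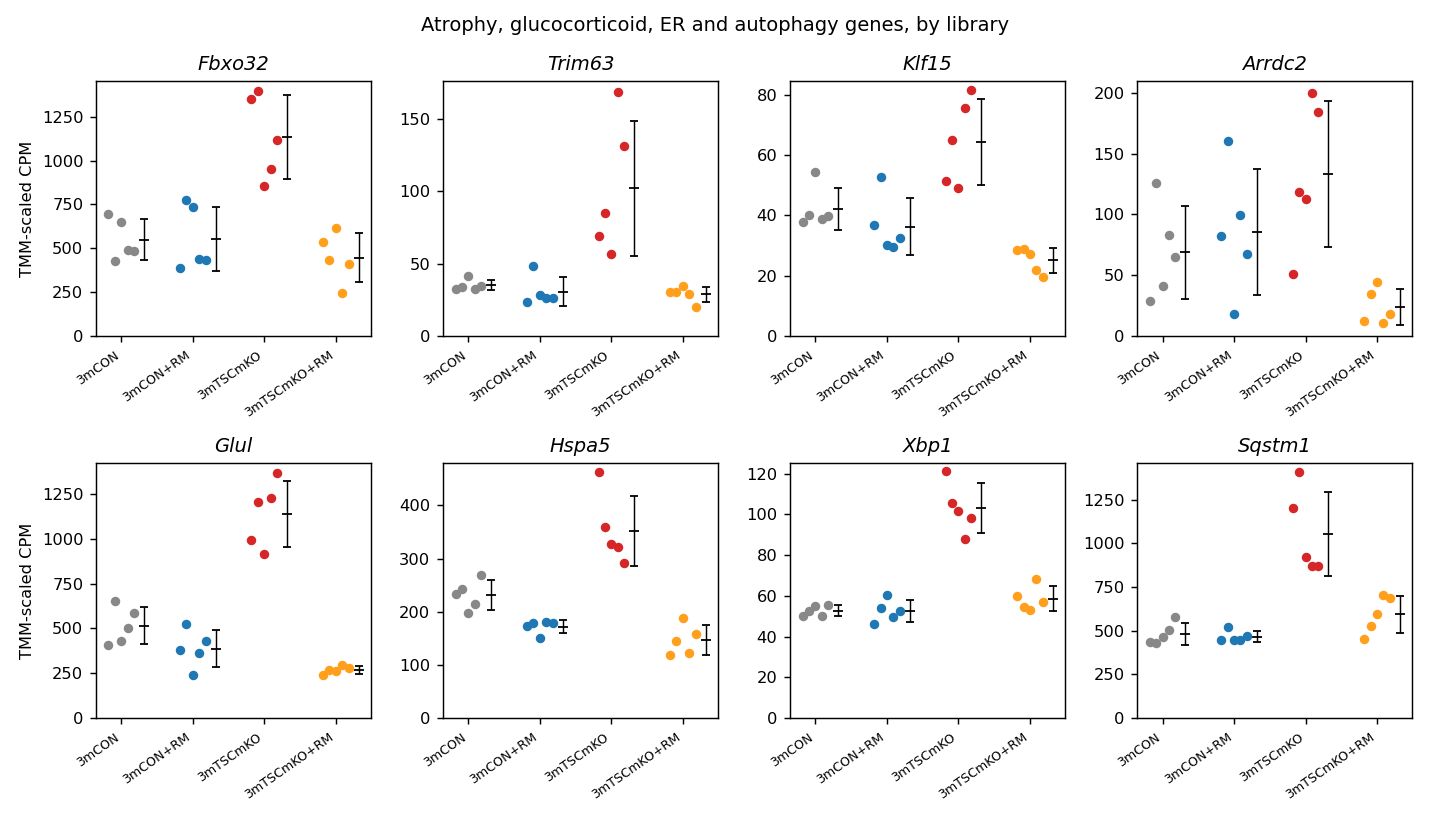
TMM-scaled CPM of 8 genes in each of the 20 libraries at 3 months (colored points), with the group mean ± SD in black (n = 5). In all 8 (Fbxo32, Trim63, Klf15, Arrdc2, Glul, Hspa5, Xbp1 and Sqstm1) the 5 vehicle-treated 3mTSCmKO libraries lie above the 5 RM-treated ones, while 3mCON and 3mCON+RM overlap except for Hspa5. The Tsc1-deficient groups did not overlap in 391 of the 430 called genes at 5 CPM or more, and Arrdc2 was named by a rule that required it.

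The promoters of 4 of these genes are shown because each holds a sequence that the glucocorticoid receptor, FoxO factors, ATF4 or the ER stress factors are known to bind. They are RefSeq windows (GRCm38.p6) of 300 bases, from 250 before to 50 after an annotated start site, in lower case with the matched motif in capitals. All 4 genes lie on the + strand, and the windows are chr10:21993640-21993939 for Sgk1 (1 of 6 annotated promoters), chr4:134314870-134315169 for Trim63, chr19:27216770-27217069 for Vldlr (1 of 2) and chr2:34771840-34772139 for Hspa5.
Sgk1: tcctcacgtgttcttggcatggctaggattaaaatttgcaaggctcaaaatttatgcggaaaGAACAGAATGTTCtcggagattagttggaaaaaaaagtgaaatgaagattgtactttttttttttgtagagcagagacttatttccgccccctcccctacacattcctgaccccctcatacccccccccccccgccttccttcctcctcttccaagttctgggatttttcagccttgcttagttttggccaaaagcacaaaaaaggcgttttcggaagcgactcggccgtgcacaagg
Trim63: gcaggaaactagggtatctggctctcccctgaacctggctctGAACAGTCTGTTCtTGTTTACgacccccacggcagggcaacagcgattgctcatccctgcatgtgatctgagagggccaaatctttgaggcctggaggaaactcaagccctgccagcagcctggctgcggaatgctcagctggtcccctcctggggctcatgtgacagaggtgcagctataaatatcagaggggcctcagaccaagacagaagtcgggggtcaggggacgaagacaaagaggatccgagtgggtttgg
Vldlr: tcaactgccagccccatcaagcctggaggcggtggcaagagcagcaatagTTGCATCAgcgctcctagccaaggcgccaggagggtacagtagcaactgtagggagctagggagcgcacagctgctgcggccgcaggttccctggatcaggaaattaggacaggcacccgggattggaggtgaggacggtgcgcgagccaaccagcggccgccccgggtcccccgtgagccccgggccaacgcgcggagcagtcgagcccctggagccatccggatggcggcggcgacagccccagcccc
Hspa5: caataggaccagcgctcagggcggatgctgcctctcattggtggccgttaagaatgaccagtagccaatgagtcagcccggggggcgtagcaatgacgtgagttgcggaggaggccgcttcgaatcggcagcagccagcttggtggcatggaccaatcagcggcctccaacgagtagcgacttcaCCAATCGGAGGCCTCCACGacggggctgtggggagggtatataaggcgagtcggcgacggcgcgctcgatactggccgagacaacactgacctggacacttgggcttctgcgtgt

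The motifs were chosen after the results were seen and were searched on both strands of 32851 promoter windows. The palindromic glucocorticoid response element core GAACANNNTGTTC occurs in 19 windows (0.0578%), among them those of Sgk1, at -188 to -176 from the start site, and of Trim63, at -208 to -196. They are the 2 tested members with the element, of 20 with a window, and 7 of the 8 called members had a window. Trim63 also holds the FoxO core TGTTTAC at -194 to -188, next to the first element, whereas this short motif is found in 3.65% of all windows, in 3 of the 25 tested atrophy members with a window (Eda2r, Mdm2 and Trim63) and in 1 of the 5 matched among the 7 called. A match describes the letters only.

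ATF4 targets and effectors formed a further group with lower values in Tsc1-deficient muscle after RM. Of 30 members, 7 were called, all below 0 (median -0.32), beside 2.09% of all genes, with median responses of -0.54 in 3mTSCmKO and -0.10 in 3mCON. The called members were Ddit4, Gadd45a, Mthfd2, Gpt2, Sesn2, Vldlr and Cebpg. Of these, Ddit4 is also on the lists of TSC and mTOR components and of glucocorticoid targets, and Sesn2 on the former. The counts of these lists are therefore not independent. RM lowered 16 of the 30 in 3mTSCmKO and raised none, where 23.6% of all genes changed and 1761 of 13543 fell.

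Gadd45a (ENSMUSG00000036390, chr6:67035096-67037457 on the - strand), a stress-induced gene of atrophying muscle, was at 27.2, 32.5, 14.5, 32.7 and 35.4 CPM in 3mCON and 19.2, 36.3, 37.2, 21.7 and 17.2 CPM in 3mCON+RM. It stood at 173, 114, 95.3, 64.4 and 106 CPM in 3mTSCmKO and 23, 22.5, 31.3, 13.5 and 16.1 CPM in 3mTSCmKO+RM. The 5 vehicle-treated 3mTSCmKO muscles were above all others, and the treated ones lay within the control range except for library 4, which was below it. RM lowered it 5.19-fold (interaction -2.26 ± 0.38, edgeR adjusted p = 0.000277). Its relative Gadd45g had an interaction of -2.86 ± 0.61 (adjusted p = 0.00463) with ranges of 20.6 to 111 CPM in 3mTSCmKO and 4.75 to 21.2 CPM in 3mTSCmKO+RM, which touch at library 1 of 3mTSCmKO. In the list of Gadd45, p21 and p53 targets, 6 of 28 members were called, all below 0 (median -0.14), beside 2.09% of all genes. Called or not, 15 of the 28 had values below 0, against 6569 of 13543 genes. The median was 0.01 without libraries 1 and 4 of 3mTSCmKO. Gadd45a, Sesn1 and Sesn2 were already counted in earlier lists.

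Among the metabolic ATF4 targets, Mthfd2, the mitochondrial one-carbon enzyme, was at 17.9 to 27.1 CPM in 3mTSCmKO and 5.38 to 9.97 CPM in 3mTSCmKO+RM, which was still above every control library (1.24 to 5.06 CPM). Its interaction of -1.41 ± 0.33 (edgeR adjusted p = 0.00911) fell short of a call without library 5 of 3mCON+RM (-1.08, adjusted p = 0.051). Gpt2, the mitochondrial alanine transaminase, had an interaction of -1.07 ± 0.27 (adjusted p = 0.0177). Vldlr, a lipoprotein receptor chosen after its values were seen, went from 1224 to 1743 CPM in 3mTSCmKO to 474 to 619 CPM in 3mTSCmKO+RM, while controls had 734 to 1012 CPM and 531 to 744 CPM (interaction -0.97 ± 0.23, adjusted p = 0.0121). Its printed window holds the C/EBP-ATF element TGATGCAA, on the reverse strand at -200 to -193, as do 0.895% of all windows, 5 of the 25 tested list members with a window (Atf3, Chac1, Nupr1, Slc7a11 and Vldlr) and 1 of the 7 called. Of 26 genes of serine, one-carbon, asparagine and proline synthesis 5 were called, 1 above and 4 below 0 (median -0.11, beside 3.45% of all genes called), and the count fell to 3 in 14 of the 20 fits that leave out 1 library. The called members were Glul, which is also among the glucocorticoid targets, Mthfd2 and Gpt2, which are also on the ATF4 list, Aldh1l1 and Aldh1l2. The median over 23 aminoacyl-tRNA synthetases was -0.06.

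Endoplasmic reticulum (ER) chaperones and the unfolded protein response showed the same direction, with 5 of 32 members called, all below 0 (median -0.20), beside 2.09% of all genes. Hspa5 (BiP, ENSMUSG00000026864), the main ER chaperone, was at 233, 243, 197, 214 and 270 CPM in 3mCON and 173, 178, 149.8, 181 and 179 CPM in 3mCON+RM. It was at 462, 359, 327, 322 and 292 CPM in 3mTSCmKO and 118, 146, 188, 123 and 157 CPM in 3mTSCmKO+RM. Both genotypes had lower values with RM and neither pair overlapped, but the step was larger without Tsc1. RM lowered Hspa5 2.41-fold in 3mTSCmKO (log2 -1.27 ± 0.12, adjusted p = 2.92e-10), and the change in 3mCON of -0.43 ± 0.12 was not called (adjusted p = 0.0848), with an interaction of -0.84 ± 0.17 (edgeR adjusted p = 0.00227).

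Selenos, an ER selenoprotein of the degradation machinery, fell in both genotypes, by 1.34 on the log2 scale in 3mTSCmKO and by 0.51 in 3mCON (adjusted p = 0.0324), with an interaction of -0.82 ± 0.17 (edgeR adjusted p = 0.0034). Xbp1, the transcription factor spliced by IRE1, was at 87.8 to 121 CPM in 3mTSCmKO and 53.2 to 68.5 CPM in 3mTSCmKO+RM, with controls at 46 to 60.2 CPM in both groups (interaction -0.80 ± 0.14, adjusted p = 0.000429). Sdf2l1, a cofactor of ER chaperones, had -1.40 ± 0.31 (adjusted p = 0.00622) at levels under 5 CPM. Herpud1, chosen after its values were seen, was called at -0.54 ± 0.15 (adjusted p = 0.0255) but not in 4 fits without 1 library (1 of 3mCON, 2 of 3mCON+RM, 2 of 3mTSCmKO, 2 of 3mTSCmKO+RM), at worst -0.49 with an adjusted p of 0.0621. In the printed Hspa5 window the ER stress response element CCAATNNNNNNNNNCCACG lies at -65 to -47. This element is in 0.119% of all windows, in 8 of the 25 list members with a window, and in 1 of the 5 called.

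Of 29 cytosolic heat shock proteins and co-chaperones, 2 were called, both above 0 (median 0.07), beside 1.36% of all genes called above 0. At 9 months 2 of the 29 were called as well, both below 0 (median -0.18), beside 4.87% of all genes called at that age. Hspb6 (HSP20), a small heat shock protein of muscle, rose from 1289 to 2005 CPM in 3mTSCmKO to 2085 to 3270 CPM in 3mTSCmKO+RM, against 1211 to 1856 CPM over both control groups (interaction 1.0 ± 0.24, edgeR adjusted p = 0.0126). Hspa1l had 1.09 ± 0.21 (adjusted p = 0.00197).

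Gpx3 (ENSMUSG00000018339, chr11:54902453-54910377 on the + strand), a secreted glutathione peroxidase, shared the smallest adjusted p of the named genes with Slc47a1. It was at 228, 233, 162, 295 and 251 CPM in 3mCON and 211, 261, 281, 224 and 197 CPM in 3mCON+RM. It was at 1679, 1527, 1508, 1694 and 2023 CPM in 3mTSCmKO and 323, 195, 141, 178 and 229 CPM in 3mTSCmKO+RM. The 3mTSCmKO libraries lay far above all others, and the treated ones overlapped both control groups. RM lowered Gpx3 7.92-fold in 3mTSCmKO (log2 -2.99 ± 0.24, adjusted p = 6.93e-12), with 0.00 ± 0.22 in 3mCON (adjusted p = 0.998), and 3mTSCmKO+RM differed from 3mCON+RM by -0.14 ± 0.22 (adjusted p = 0.805). Its interaction was -2.99 ± 0.32 (edgeR adjusted p = 9.44e-08).

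The NRF2 antioxidant list to which Gpx3 was assigned had 4 of 34 members called, all below 0 (median -0.20), beside 2.09% of all genes. Gclc, the rate-limiting enzyme of glutathione synthesis, was at 24.7 to 32.5 CPM in 3mTSCmKO and 13.8 to 18.3 CPM in 3mTSCmKO+RM, within the control range of 14.3 to 21.7 CPM apart from library 1 (interaction -0.80 ± 0.16, edgeR adjusted p = 0.00183). Txnrd1, cytosolic thioredoxin reductase, had -0.83 ± 0.18 (adjusted p = 0.00502). Me1, malic enzyme, was called at -0.66 ± 0.18 (adjusted p = 0.0287) but not without any 1 of 7 libraries (1 or 5 of 3mCON, 2 of 3mCON+RM, 1 or 2 of 3mTSCmKO, 2 or 4 of 3mTSCmKO+RM), at worst -0.61 with an adjusted p of 0.0643.

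Lysosome and autophagy genes came next. Among 47 genes of the lysosome, V-ATPase and the TFEB family, 3 were called below 0 (median -0.06), and among 41 autophagy genes 2 (median -0.20), beside 2.09% of all genes. Of the 41, RM lowered 11 and raised 1 in 3mTSCmKO, against 23.6% of all genes changed. The fit to the 20 libraries of 3 months alone called 10 of the 47 and 7 of the 41, against 1194 of 13543 genes. Sqstm1 (p62), the autophagy receptor, was at 870 to 1410 CPM in 3mTSCmKO and 452 to 704 CPM in 3mTSCmKO+RM, against 431 to 581 CPM over both control groups (interaction -0.78 ± 0.18, edgeR adjusted p = 0.0102). Npc1, the lysosomal cholesterol exporter, was at 144 to 218 CPM in 3mTSCmKO and 62.3 to 83.3 CPM in 3mTSCmKO+RM (interaction -1.51 ± 0.26, adjusted p = 0.000444). Gpnmb, a lysosomal membrane glycoprotein, went from 13.5 to 30 CPM down to 3.29 to 5.93 CPM (interaction -1.93 ± 0.43, adjusted p = 0.00622). Becn1, a core autophagy gene, had the small interaction of -0.44 ± 0.12 (adjusted p = 0.0246).

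The counts called in the other metabolic lists stand beside 3.45% of all genes. Bcat2, which starts the breakdown of branched-chain amino acids, was at 80.2 to 108 CPM in 3mTSCmKO and 16.9 to 33.4 CPM in 3mTSCmKO+RM, against 46.6 to 68.1 CPM in 3mCON and 29.6 to 46.4 CPM in 3mCON+RM (interaction -1.19 ± 0.23, edgeR adjusted p = 0.00205). Pdp1, which activates pyruvate dehydrogenase, had -1.29 ± 0.24 (adjusted p = 0.00122), and these 2 were the called members of 43 in that list. Pfkfb4, which sets fructose-2,6-bisphosphate, was the 1 called of 44 in glycolysis (-0.77 ± 0.19, adjusted p = 0.0141), with 2 called without library 2 of 3mCON. Sc5d, a late enzyme of cholesterol synthesis, was called at -0.83 ± 0.14 (adjusted p = 0.000162), and was 1 of 3 called among 40 SREBP targets, with Insig1 and Me1 (median -0.08). That count fell to 1 in 6 of the 20 fits without a library, and Insig1 lost its call in 15 of them. Amd1, which commits S-adenosylmethionine to polyamine synthesis, fell to 130 to 257 CPM in 3mTSCmKO+RM from 699 to 1097 CPM (interaction -1.70 ± 0.37, adjusted p = 0.00538). Srm, spermidine synthase and the other called member of 16 polyamine genes, had 0.87 ± 0.24 (adjusted p = 0.0342). It did not pass without library 2, 3 or 4 of 3mCON, 1, 3 or 4 of 3mCON+RM, 1, 2 or 4 of 3mTSCmKO or 4 of 3mTSCmKO+RM, the last with 0.76 (adjusted p = 0.0948). Slc43a1, a neutral amino acid transporter, had -1.30 ± 0.29 (adjusted p = 0.00571) and was the 1 called of 27 amino acid transporters, with 2 called without library 3 of 3mCON, 4 of 3mTSCmKO or 3 of 3mTSCmKO+RM.

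Tpx2 (ENSMUSG00000027469, chr2:152847964-152895321 on the + strand), a spindle assembly factor, stood out among 34 proliferation genes, of which 2 were called, beside 3.45% of all genes. It was at 4.98, 5.64, 7.44, 5.24 and 6 CPM in 3mCON and 1.7, 3.26, 3.48, 2.28 and 3.9 CPM in 3mCON+RM. In 3mTSCmKO it was at 60.4, 60.4, 48.9, 24.4 and 40.2 CPM, and in 3mTSCmKO+RM at 1.99, 2.48, 2.7, 1.73 and 3.26 CPM. RM lowered it 19.4-fold in 3mTSCmKO, and 3mTSCmKO+RM lay in the range of 3mCON+RM. Its interaction was -3.27 ± 0.43 (edgeR adjusted p = 6.02e-06). The median over the 34 genes was 0.01, and Ccne2, cyclin E2, was above 0 (1.02 ± 0.18, adjusted p = 0.00049).

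**Figure D3:**
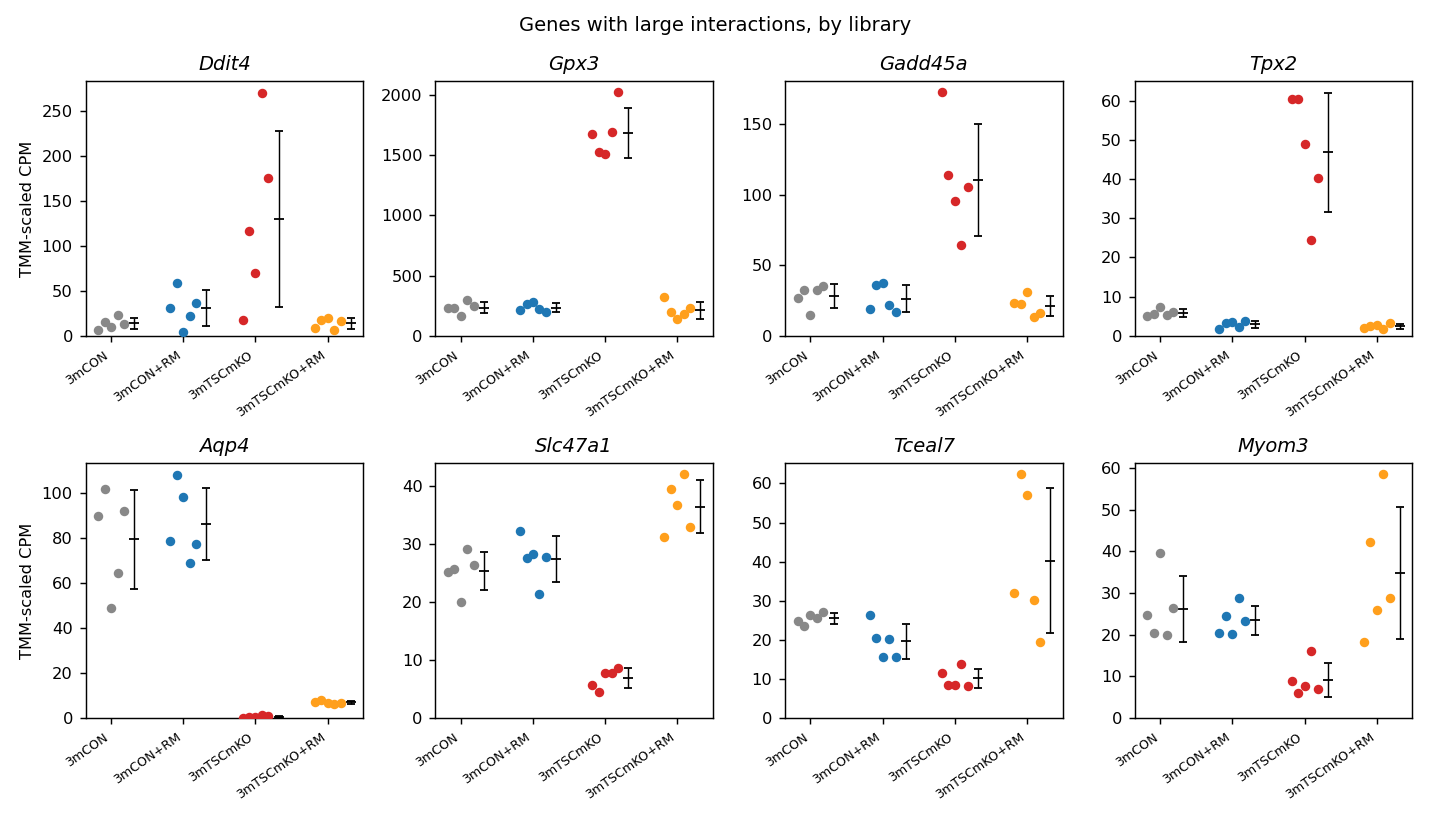
TMM-scaled CPM of 8 genes with large interactions in each of the 20 libraries at 3 months, with the group mean ± SD in black (n = 5). In the upper row (Ddit4, Gpx3, Gadd45a, Tpx2) 3mTSCmKO is high and 3mTSCmKO+RM near the controls, and in the lower row (Aqp4, Slc47a1, Tceal7, Myom3) 3mTSCmKO is low and RM raises the level. All but Ddit4 were named by a rule that required 3mTSCmKO and 3mTSCmKO+RM not to overlap, so their separation is no separate result.

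Further genes with large values below 0 came from outside the lists. Rasd2, a small GTPase known as Rhes, was nearly silent in most control muscles (3.08 to 4.06 CPM in 4 libraries of 3mCON and 17.2 CPM in library 3). It was at 150 to 273 CPM in 3mTSCmKO and 27.4 to 50 CPM in 3mTSCmKO+RM, still above all controls, with an interaction of -1.98 ± 0.48 (edgeR adjusted p = 0.0142). Over the alternative fits the interaction of Rasd2 ran from -2.84 to -1.80 and stayed called. Asb15, a muscle ankyrin and SOCS-box gene, was at 120 to 263 CPM and then 22.2 to 46.2 CPM (interaction -2.11 ± 0.43, adjusted p = 0.0034). Mrvi1, an IP3 receptor-associated protein, was at 55.6 to 104 CPM and then 14.9 to 23.5 CPM (interaction -2.08 ± 0.23, adjusted p = 2.62e-07). 8430408G22Rik, a protein-coding gene, had -2.97 ± 0.62 (adjusted p = 0.0038).

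Less certain were 3 other large values. C130080G10Rik (-4.05 ± 0.81, edgeR adjusted p = 0.00258) shares 37.2% of its 31-base words with other genes of the annotation and overlaps A530058N18Rik on the same strand. Gm10851, antisense to Pfkfb3, was at 7.2 to 13.5 CPM in 3mTSCmKO and under 1 CPM in every other library (interaction -3.88 ± 0.81, adjusted p = 0.0036), and its call was lost without library 4 of 3mCON+RM (-3.0, adjusted p = 0.144). Tfcp2l1 (-2.28 ± 0.58, adjusted p = 0.0202) was not called without library 4 of 3mTSCmKO (-1.83, adjusted p = 0.0594).

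Among the genes with values above 0, Aqp4, the water channel of fast fibers, was at 90.1, 102, 49.1, 64.6 and 92 CPM in 3mCON and 78.9, 108, 98.3, 69.1 and 77.3 CPM in 3mCON+RM. It was at 0.198, 0.457, 0.257, 1.31 and 0.756 CPM in 3mTSCmKO and 7.23, 8.02, 6.63, 6.08 and 6.64 CPM in 3mTSCmKO+RM. RM raised it 10.2-fold, and every treated Tsc1-deficient muscle remained far below every control. The interaction was 3.23 ± 0.37 (edgeR adjusted p = 3.32e-07), and 3mTSCmKO+RM still differed from 3mCON+RM by -3.64 ± 0.24 (adjusted p = 1.08e-13).

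Slc47a1 (MATE1, ENSMUSG00000010122, chr11:61343401-61378345 on the - strand), an exporter of organic cations, was at 25.2, 25.7, 20, 29.1 and 26.4 CPM in 3mCON and 32.3, 27.6, 28.2, 21.3 and 27.7 CPM in 3mCON+RM. It was at 5.73, 4.44, 7.81, 7.81 and 8.6 CPM in 3mTSCmKO and 31.2, 39.5, 36.7, 42 and 32.9 CPM in 3mTSCmKO+RM. Unlike Aqp4, it reached the control range or passed it in every treated muscle. RM raised it 5.24-fold in 3mTSCmKO (interaction 2.28 ± 0.24, edgeR adjusted p = 9.44e-08). These were the 2 called members of 29 channels, aquaporins and transporters of the fiber (median 0.10), beside 1.36% of all genes called above 0.

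Structural and regulatory genes of muscle followed. Myom3, an M-band protein, was at 6.01 to 16.1 CPM in 3mTSCmKO and 18.2 to 58.5 CPM in 3mTSCmKO+RM, with controls at 19.8 to 39.6 CPM over both groups (interaction 2.07 ± 0.41, edgeR adjusted p = 0.00217). Tceal7, which overlaps Bex1 on the opposite strand, was at 8.31 to 13.9 CPM and then 19.4 to 62.4 CPM (interaction 2.37 ± 0.35, adjusted p = 4.75e-05). Smad3, the mediator of myostatin and activin signals, went from 19.1 to 30.6 CPM in 3mTSCmKO to at least 59.2 CPM in every 3mTSCmKO+RM library, against 58.5 to 118 CPM in controls (interaction 1.10 ± 0.26, adjusted p = 0.0121). The activin receptor gene Acvr1b of the same list fell, with an interaction of -0.93 ± 0.23 (adjusted p = 0.0165), and 2 of its 32 genes were called, beside 3.45% of all genes.

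The long non-coding RNA 2310020H05Rik had the largest value above 0 of the named genes (3.58 ± 0.54, edgeR adjusted p = 6.51e-05) at 0.192 to 0.653 CPM in 3mTSCmKO and 2.5 to 8.17 CPM in 3mTSCmKO+RM. Adamts20, a secreted metalloprotease, had 1.96 ± 0.31 (adjusted p = 9.47e-05), Fam19a3, a secreted chemokine-like protein, 1.94 ± 0.27 (adjusted p = 1.6e-05), Efcab6, a calcium-binding protein, 1.83 ± 0.25 (adjusted p = 9.07e-06), and Cpne2, a copine, 1.78 ± 0.39 (adjusted p = 0.00639). For Cpne2 every treated Tsc1-deficient muscle (15.4 to 35.8 CPM) was above every control (6.37 to 9.23 CPM). Scx, the tendon transcription factor, was at 1.11 to 2.16 CPM in 3mTSCmKO and 4.69 to 7.56 CPM in 3mTSCmKO+RM (interaction 1.96 ± 0.41, adjusted p = 0.00367), beside which the 9 tendon markers summed to 180 to 485 CPM and 325 to 621 CPM in these groups and to 97.5 to 860 CPM over the controls. The other 8 tendon markers were not called, and the part of tendon in the change of Scx was not tested. Gm28651 (1.99) and 5430431A17Rik (1.74), both long non-coding RNAs, complete the 12 genes named for their size above 0.

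The genes of nerve contact were next. Of 34 denervation and junction genes, 2 were called, both above 0 (median 0.23), beside 1.36% of all genes called above 0. RM raised 9 of the 34 in 3mTSCmKO and lowered none, against 1435 raised and 1761 lowered of 13543 genes. In the interaction at 9 months 4 of the 34 were called, 1 above and 3 below 0 (median 0.05), beside 4.87% of all genes. Ache, acetylcholinesterase, was at 27.6 to 43.7 CPM in 3mTSCmKO and 60.1 to 83.3 CPM in 3mTSCmKO+RM (interaction 1.0 ± 0.26, edgeR adjusted p = 0.0232), and 0.91 with an adjusted p of 0.0552 without library 5 of 3mCON. Ncam1, a marker of denervated fibers, had 0.95 ± 0.26 (adjusted p = 0.0279) and lost its call without library 1 of 3mCON, 1 of 3mCON+RM, 1 of 3mTSCmKO or 4 of 3mTSCmKO+RM, at worst to 0.72 with an adjusted p of 0.101. Of 30 myogenic and developmental genes, 3 were called, all below 0, although the median over the list was 0.19, beside 2.09% of all genes called below 0. They included Myl4, the embryonic light chain, at 57.1 to 83.6 CPM in 3mTSCmKO, 24.9 to 35.3 CPM in 3mTSCmKO+RM and 5.87 to 12.8 CPM in controls (interaction -1.49 ± 0.35, adjusted p = 0.0106), and Eya1, a fast-fiber co-activator (-0.98 ± 0.24, adjusted p = 0.0141). In the 9-month interaction 2 of the 30 were called, both above 0 (median -0.02).

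Igfn1, a muscle immunoglobulin-domain gene and the remaining called member of that list, varied widely within the vehicle group. It was at 1441, 2266, 1447, 270 and 1400 CPM in 3mTSCmKO and 371 to 627 CPM in 3mTSCmKO+RM, against 19.5 to 59.2 CPM in controls. Its interaction was -1.94 ± 0.51 (edgeR adjusted p = 0.0251) and was not called without library 2 of 3mTSCmKO (-1.68, adjusted p = 0.0646) or library 2 of 3mTSCmKO+RM. Mybpc1, the slow myosin-binding protein C, was the 1 called of 30 fiber-type genes (0.90 ± 0.24, adjusted p = 0.0222), beside 3.45% of all genes. It lost its call without library 1 of 3mCON (0.81, adjusted p = 0.0621) or library 4 of 3mTSCmKO. The list had 2 called without library 2 of 3mTSCmKO or library 1 of 3mTSCmKO+RM.

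Several processes that mTORC1 is known for had no called member in the fit to all 40 libraries. None of 81 cytosolic ribosomal proteins, 50 translation factors, 41 proteasome genes, 37 complex I subunits, 42 subunits of complexes II to V or 28 gene entries (27 symbols) of purine and pyrimidine synthesis was called by edgeR at an adjusted p under 0.05. At an unadjusted p under 0.05 these lists had 2, 7, 3, 0, 0 and 6 members, against 2031 of all 13543 genes, and DESeq2 called 1 proteasome gene and none in the other 5 lists. The edgeR fit to the 20 libraries of 3 months alone called 3, 4, 2, 0, 0 and 2 members, among them Eif4ebp2, Eif2s2, Rps2, Psme4 and Pfas. Without library 4 of 3mTSCmKO the proteasome and the purine and pyrimidine lists had 1 call each. Called or not, 62, 24, 15, 22, 27 and 11 members of these lists had values below 0, against 6569 of 13543 genes. The ribosomal proteins had a median interaction of -0.11, with median responses to RM of 0.21 in 3mCON and 0.13 in 3mTSCmKO. The translation factors responded to RM in both genotypes with like medians, 0.18 in 3mTSCmKO (23 of 50 called, 18 higher and 5 lower, beside 23.6% of all genes) and 0.15 in 3mCON (5 called, beside 0.679%). The translation factors with the largest interactions in size were Eif4ebp2, an inhibitor of cap-dependent translation (-0.73 ± 0.25, adjusted p = 0.105), and Eif2s2, a subunit of eIF2 (-0.51 ± 0.18, adjusted p = 0.12). Rps2 had -0.56 ± 0.23 (adjusted p = 0.215), and 24.4% of its 31-base words occur in other genes. Psme4, the proteasome activator PA200, came close with -1.05 ± 0.32 (adjusted p = 0.0586), at 1204 to 1927 CPM in 3mTSCmKO and 561 to 785 CPM in 3mTSCmKO+RM. Of 69 ribosome biogenesis factors RM raised 19 and lowered 1 in 3mTSCmKO (median 0.17, beside 1435 raised of 13543 genes) with a median of 0.15 in 3mCON, and 1 was called in the interaction (Gar1), a count that was 0 or 2 in 16 of the 20 fits without a library. In simulated counts of this design 49.3% of 2-fold and 7.46% of 1.5-fold interactions over genes drawn from the whole table were recovered. The simulation gave 100 calls, against 467 in the data, so these shares need not hold for the lists above.

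**Figure D4:**
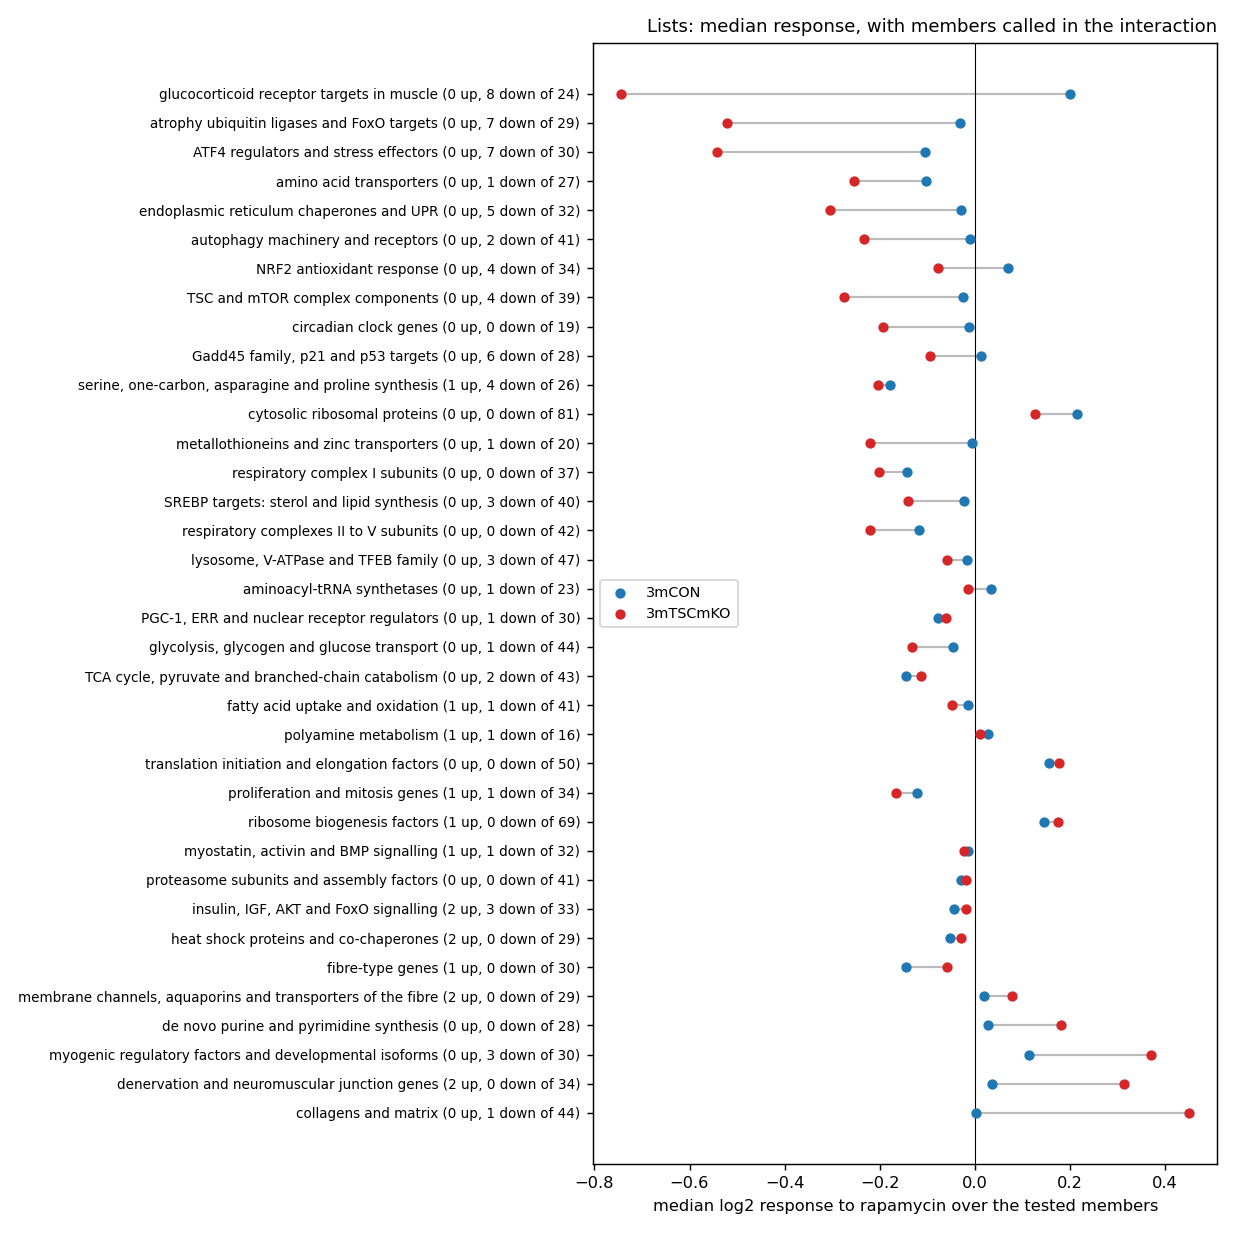
Median log2 response to RM over the tested members of each gene list in 3mCON (blue) and 3mTSCmKO (red), with the members called in the interaction in brackets. Cell type marker lists are left out. The pair of medians lies furthest apart for glucocorticoid targets (0.20 and -0.74) and close together for translation factors (0.15 and 0.18).

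For 8 genes the change was larger in control mice. Vegfa (ENSMUSG00000023951, chr17:46016993-46032369 on the - strand), the endothelial growth factor, was at 305, 245, 296, 251 and 308 CPM in 3mCON and 258, 195, 198, 169 and 199 CPM in 3mCON+RM. It was at 140, 139, 132, 128 and 163 CPM in 3mTSCmKO and 192, 190, 193, 136 and 165 CPM in 3mTSCmKO+RM. The 3mCON libraries lay above both TSCmKO groups, and each treated group overlapped the vehicle group of its own genotype. The responses were -0.46 ± 0.12 in 3mCON (adjusted p = 0.0652) and 0.32 ± 0.12 in 3mTSCmKO (adjusted p = 0.0563), neither of which was called, and the interaction was 0.78 ± 0.17 (edgeR adjusted p = 0.00639).

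Dcxr, which reduces dicarbonyls and xylulose, fell in 3mCON by 0.69 ± 0.16 on the log2 scale (adjusted p = 0.0256) and had 0.25 ± 0.15 in 3mTSCmKO (interaction 0.94 ± 0.22, edgeR adjusted p = 0.0102). Fam207a rose in 3mCON, from 5.74 to 7.29 CPM to 7.48 to 10.1 CPM, and had the opposite sign in 3mTSCmKO (interaction -0.69 ± 0.17, adjusted p = 0.0153). Thpo, the gene for thrombopoietin, had 1.10 ± 0.26 (adjusted p = 0.00999), and Gm29773, antisense to Nup133, 0.99 ± 0.23 (adjusted p = 0.00971). Pcca, Sntb1 and Serinc3 complete the 8, and their calls did not survive leaving out any 1 of 7, 11 and 15 of the 20 libraries. At worst they had 0.45 (adjusted p = 0.0642, without library 5 of 3mCON+RM), 0.74 (adjusted p = 0.197, without library 4 of 3mTSCmKO+RM) and -0.42 (adjusted p = 0.105, without library 2 of 3mTSCmKO+RM).

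Markers of other cells were compared too. The median over 6 erythroid markers was -1.61, with all below 0, but it rested on library 3 of 3mTSCmKO, without which it was 0.16. The median was 0.90 over 9 tendon markers, all above 0 and with Scx called, whose summed levels are given with Scx. No marker of endothelium (13 tested), fibroblasts (12), satellite cells (8), Schwann cells (10), smooth muscle (9) or adipocytes (8) was called in the interaction by edgeR over all 40 libraries or by DESeq2, with 0, 1, 1, 0, 0 and 0 members at an unadjusted p under 0.05. Exceptions were Cdh15, a satellite cell marker, called in the fit to 20 libraries and without library 2 of 3mTSCmKO, and S100b, a Schwann cell marker, called without library 4 of 3mTSCmKO. The 12 fibroblast markers summed to 1332 to 2041 CPM in 3mTSCmKO and 1827 to 3130 CPM in 3mTSCmKO+RM. The collagen and matrix list had a median of 0.41 with 1 of 44 genes called (Lox), beside 3.45% of all genes, or 0 in 12 of the 20 fits without a library. Muscle fiber markers summed to 133649 to 234991 CPM in 3mTSCmKO and 213349 to 241945 CPM in 3mTSCmKO+RM. Erythroid markers reached 9032 CPM in library 3 of 3mTSCmKO, the highest of the 20 libraries, against 467 CPM in the lowest of that group, and none of the 6 was called by edgeR or DESeq2 (1 at an unadjusted p under 0.05). S100a9, a neutrophil gene, was called at -4.84 ± 1.23 (edgeR adjusted p = 0.0184), but its level was 20.2 CPM in library 4 of 3mTSCmKO and under 4 CPM elsewhere, and without that library it had -2.88 (adjusted p = 0.101), as it also lost its call without library 4 of 3mCON+RM. The part of these cells in the other results was not tested.

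Library 1 of 3mTSCmKO had the lowest level of Ddit4, Gadd45g, Arrdc2, Sgk1 and Tsc22d3 in that group, and library 4 the highest of Ddit4, Trim63, Asb15 and S100a9 and the lowest sum of muscle fiber markers. Without both, an alternative chosen after seeing the data, 344 genes were called in the interaction, 2287 for RM in 3mTSCmKO and 93 for RM in 3mCON. The glucocorticoid targets then still had 8 members called (median -0.98), and the ATF4 list 6, the atrophy list 6 and the ER list 4. The denervation and the fiber-type lists had 0 called, the insulin list 3, the autophagy list 1 and the lysosome list 4.

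The same interaction was then read in the 20 libraries of 9 months, which share none with the 3-month comparison. There 660 genes were called (4.87%). Of the 467 genes called at 3 months, 144 were also called at 9 months, which is 30.8% of the 3-month and 21.8% of the 9-month calls, and all 144 had the same direction (73 above and 71 below 0). The sign matched for 437 of the 467, while the share of matching signs over all genes was not counted. Tested directly, the interaction differed between ages for 5 genes (0.0369%), of which Mrvi1, Stbd1 and Scn3b were among the 467. For Mrvi1 the values were -2.08 at 3 months and -0.41 ± 0.23 at 9 months (difference 1.67 ± 0.33, edgeR adjusted p = 0.0272).

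Of the named genes, Gpx3 had -1.91 ± 0.31 at 9 months (edgeR adjusted p = 0.000325), Gadd45a -1.71 ± 0.37 (adjusted p = 0.00541), Tpx2 -1.61 ± 0.40 (adjusted p = 0.0144), Slc47a1 1.24 ± 0.24 (adjusted p = 0.0017) and Hspa5 -0.88 ± 0.17 (adjusted p = 0.00157). Sqstm1 had -1.11 ± 0.18 (adjusted p = 0.000347) and Ache 1.14 ± 0.26 (adjusted p = 0.0079). These glucocorticoid and atrophy genes had smaller values there and were not called, with -0.76 ± 0.36 for Trim63 (adjusted p = 0.23), -0.90 ± 0.32 for Fbxo32 (adjusted p = 0.0989), -0.62 ± 0.28 for Glul (adjusted p = 0.194) and -1.53 ± 0.74 for Ddit4 (adjusted p = 0.231). The tests of their difference between ages were not called either (adjusted p of 0.848, 0.927, 0.617 and 0.615). Of the 24 glucocorticoid targets 1 was called at 9 months (Fkbp5, -1.81 ± 0.49, adjusted p = 0.0238, median of the list -0.67), against 9 of 34 NRF2 targets (median -0.48).

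**Figure D5:**
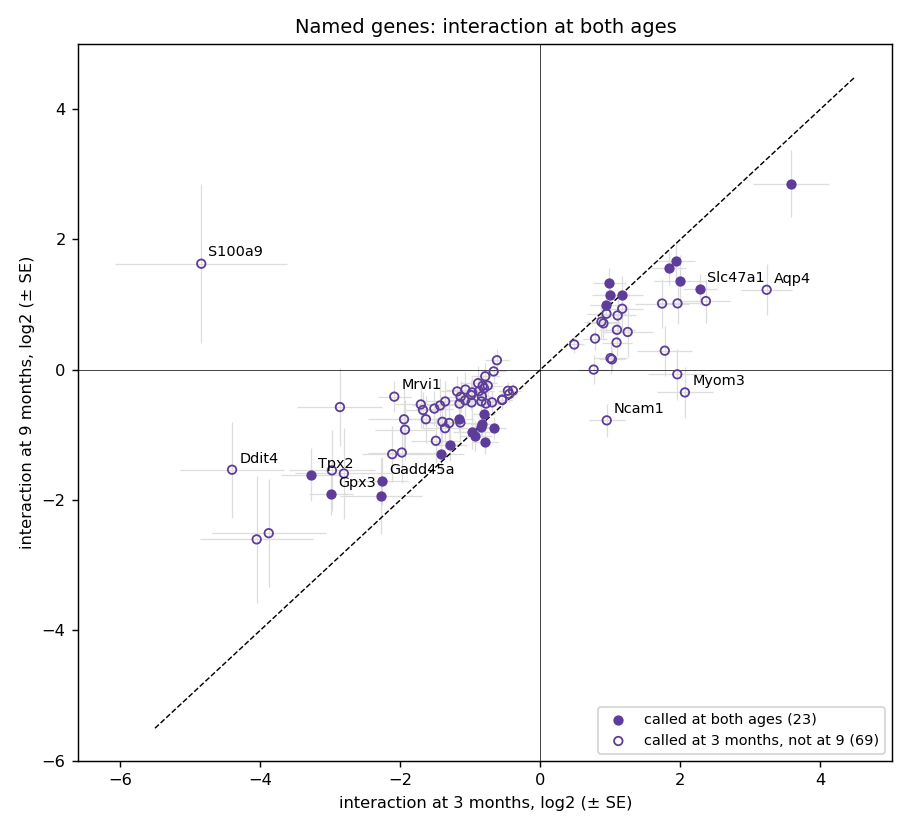
Interaction at 3 months (horizontal axis) against 9 months (vertical axis) in log2 units with SE for the 92 named genes called at 3 months, where the dashed line marks equal values. Filled points (23) were called at both ages and open points (69) at 3 months but not at 9, and 87 of the 92 had the same sign. The share of matching signs over all genes was not counted.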

How the data were processed

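RNA from 40 EDL muscles was sequenced by the authors, and the 20 libraries of 3 months were compared, with 5 in each group. Per the submitters' processing notes, reads were trimmed with cutadapt 1.9.1 and quantified with kallisto 0.43.1 against GRCm38, with the strand option of the program per the study's methods. The deposited tables hold estimated counts per gene, not whole numbers, and TPM values made by the authors from the same estimates. The estimated counts as deposited were rounded and tested, and the TPM table as deposited was not used for any value. The methods of the study name protein-coding transcripts, whereas the table of 22844 genes also holds non-coding ones. Kallisto assigns reads by 31-base words and divides those that several transcripts share. None of the value columns lacked a label (0).

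Genes with at least 1 CPM in at least 5 libraries were kept, libraries were scaled by TMM, and the quasi-likelihood test of edgeR 4.0.16 (R 4.3.3, limma 3.58.1) was fitted to all 40 libraries in 8 groups, which share 1 estimate of the spread. P-values were adjusted by the Benjamini-Hochberg method over all 13543 genes, with calls under 0.05. On simulated counts for the interaction over 13543 genes, 7.46% of 1.5-fold, 49.3% of 2-fold and 92.4% of 4-fold changes were recovered, and 1 of 100 calls was false. Only 67, 67 and 66 genes were changed by these sizes, in 3mTSCmKO+RM alone, so the shares need not hold in the data. Within groups the 40 pairs of libraries differed by a chi-square of 9.86 to 108 per gene, more than sampling noise gives between copies of 1 library. Gene classes and positions came from GENCODE M21 (31 genes of the table had no entry) and promoters from RefSeq.

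Named were Tsc1, the 12 largest called interactions in each direction (group mean of at least 5 CPM, 3mTSCmKO and 3mTSCmKO+RM not overlapping), the 8 called genes with the larger change in 3mCON, up to 4 called members of each of 46 lists, and up to 2 members of a list without calls. Other genes are said to be chosen after their values were seen. The comparison, the lists and the motifs were chosen with earlier results of these data known. Alternatives were upper-quartile and RLE scaling, no filter on low counts, DESeq2 1.42.0, a fit to 20 libraries, insert size as a covariate, a replicate block and leaving out each library.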

Additional observations from a re-analysis of the deposited data

Results flagged for a closer look

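Within each group of 5 libraries at 3 months, a library far from the other 4 was looked for in the 124 named genes, including genes named from lists without a call. Of 496 sets of 5 values, 34 held one, where chance alone gives about 1 in 20, or 24.8. Library 2 of 3mCON+RM gave 8 of them, library 3 of 3mCON 6 and library 4 of 3mTSCmKO 6.

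In 3mCON the single high values were 17.2 CPM for Rasd2, 7.29 CPM for Fam207a, 21.03 CPM for Insig1, 41.2 CPM for Trim63, 54.4 CPM for Klf15, 62.7 CPM for Hspa1l, 112 CPM for Cox8b, 50.8 CPM for Ly6c1 and 423 CPM for Col3a1. In 3mCON+RM the high ones were 3.74 CPM for Sesn2, 525 CPM for Rps2, 51.4 CPM for Pfkfb4, 48.0 CPM for Trim63, 21.7 CPM for Gclc and 1.32 CPM for Rrm2. The low ones there were 1.39 CPM for Gpnmb, 149.8 CPM for Hspa5, 239 CPM for Tsc22d3 and 137 CPM for Col3a1.

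In 3mTSCmKO the high values were 263 CPM for Asb15, 10.9 CPM for Fam207a, 83.2 CPM for Acsl6, 135 CPM for Txnrd1, 1097 CPM for Amd1, 20.2 CPM for S100a9, 19.4 CPM for Cidec, 16.7 CPM for Pck1 and 2187 CPM for Hbb-bs, and Psmg3 was low in 1 library at 2.04 CPM. Cidec and Pck1 are adipocyte markers, high in library 4, and Hbb-bs is an erythroid marker, high in library 3. In 3mTSCmKO+RM the values apart were 14.0 CPM for Sntb1, 6.46 CPM for Ciart and 1.39 CPM for Slc4a1, which were high, and 325 CPM for Rps2 and 188 CPM for Col3a1, which were low. Ly6c1 and Hbb-bs share much of their sequence with other genes, so that their counts are uncertain.

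The interaction of Mrvi1 differed between 3 and 9 months, by 1.67 on the log2 scale (edgeR adjusted p = 0.0272).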

How the results depend on the processing

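Fitted to the 20 libraries of 3 months alone, the test called 1194 genes in the interaction (456 of the 467 among them), 4809 for RM in 3mTSCmKO and 352 for RM in 3mCON. In this fit 10 of 47 lysosome and 7 of 41 autophagy genes were called in the interaction. RM in 3mCON gave 38 calls without a filter on low counts and 181 by DESeq2. Leaving out 1 library gave 339 to 447 calls in the interaction, 2621 to 3170 for RM in 3mTSCmKO and 35 (without library 4 of 3mCON+RM) to 107 for RM in 3mCON. The cause of these shifts was not tested. With insert size as a covariate the counts were 433, 3035 and 86. Upper-quartile scaling moved the median interaction over all genes from 0.01 to 0.06 and left the counts within 1.5 times. Of 92 named genes called, 65 kept their call in all 27 alternatives, 27 lost it in at least 1 (26 of them when a library was left out), and 0 changed direction.

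Same-numbered libraries of different groups did not deviate together (correlations of -0.20 to 0.26, over 0.1 in 6 of 30 pairs), and 5 of 20 libraries were closest to their own number, so the number does not pair the samples. With it as a replicate block, 454, 3227 and 86 genes were called in the 3 comparisons.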
